A study of Homo sapiens with 12 samples.

Results

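The 9 genes described here belong to the BCL2 family of apoptosis regulators: BCL2, BCL2L1, BCL2L2, MCL1, BCL2L11, BAK1, BAD, BID and BMF. They are 9 of the 20052 protein-coding genes in the RefSeq table of GRCh38, and 12 other genes of the family are described further below. The 9 were chosen by name, with earlier results of these data known. Each was represented by the transcription start site (TSS) window on its strand whose centre lay nearest its RefSeq 5′ end, within 1 kb, and by all peaks from 5 kb upstream to 5 kb downstream of the gene. A window was found for 8 of the 9 genes, and for 16888 protein-coding genes in all. The data come from chromatin immunoprecipitation of DNA G-quadruplexes with the antibody fragment BG4 in the cell line HEK293, which derives from human embryonic kidney. The cells were of a single, untreated condition, fixed with formaldehyde before sonication. Each of 3 biological replicates (BioRep1, BioRep2 and BioRep3) has 3 technical ChIP libraries (tech1 to tech3), and its input was not analysed here. The files hold raw read counts in windows of 400 bp around annotated TSSs and 1 peak list per biological replicate.

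The BCL2 family decides whether the outer mitochondrial membrane stays intact when a cell is under stress. Anti-apoptotic members hold the pore-forming effectors in check, and BH3-only members relieve that restraint or activate the effectors directly. Once the membrane is permeable, cytochrome c reaches the cytosol and caspases are activated. G-quadruplexes are stacked structures of guanine-rich DNA, and the guanine-rich promoter of BCL2 is a textbook example of a sequence that folds into them in vitro.

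The sequences just upstream of the RefSeq starts differed in whether they held a G-quadruplex motif, defined as 4 runs of GGG or longer with 1 to 7 bases of any kind (N) between them, on either strand. The promoter sequences are RefSeq's, build GRCh38.p14, and run from 250 bases before to 50 bases after a start. They were found for 7 of the 9 genes, and MCL1 and BCL2L2 had no entry. The lines below give the 130 bases before the start for BCL2L11 (chr2:111120784-111120913, plus strand), BAD (chr11:64284705-64284834, minus strand) and BAK1 (chr6:33580277-33580406, minus strand), shown because each holds a motif, which is in capitals.
BCL2L11: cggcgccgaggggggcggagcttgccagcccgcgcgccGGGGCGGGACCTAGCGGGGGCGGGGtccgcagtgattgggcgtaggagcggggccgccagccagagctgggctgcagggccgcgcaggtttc
BAD: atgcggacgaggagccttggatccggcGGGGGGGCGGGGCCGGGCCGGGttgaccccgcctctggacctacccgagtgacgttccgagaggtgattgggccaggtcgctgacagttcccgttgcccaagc
BAK1: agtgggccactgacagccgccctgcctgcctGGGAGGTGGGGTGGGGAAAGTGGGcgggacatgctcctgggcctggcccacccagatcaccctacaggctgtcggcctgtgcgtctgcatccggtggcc

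For contrast, the sequences of BCL2L1 (chr20:31723964-31724093, minus strand, the 130 bases before the start) and BMF (chr15:40108990-40109119, minus strand, 240 to 111 bases before the start) hold no motif. Both were overlapped by peaks. Here the capitals mark every run of 3 or more G or C.
BCL2L1: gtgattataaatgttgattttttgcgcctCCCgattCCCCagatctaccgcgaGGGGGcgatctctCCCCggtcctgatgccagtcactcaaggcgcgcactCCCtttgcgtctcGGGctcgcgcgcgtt
BMF: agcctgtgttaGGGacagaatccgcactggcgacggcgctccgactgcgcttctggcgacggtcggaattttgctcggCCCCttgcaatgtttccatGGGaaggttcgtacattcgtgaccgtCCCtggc

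BG4 signal at these promoters ran from peaks in every replicate at MCL1 to none at BID. Of the 8 windows, 3 had a peak in all 3 lists (MCL1, BAD and BCL2L2; 37.5%, 95% Wilson interval 13.7 to 69.4%), against 23.9% of all protein-coding windows. BAK1, BCL2L1 and BMF had a peak in 2 lists, BCL2 in 1 and BID in none. List by list, 4 windows had a peak in BioRep1 (25.4% of all protein-coding windows did), 5 in BioRep2 (35.6%) and 7 in BioRep3 (38.5%). A peak in 2 or more lists was thus present in 6 of 8 windows (75.0%, against 34.2% of all), and in 1 or more in 7 of 8 (87.5%, against 41.4%). With 8 windows the interval of the first share includes the background. No interval was computed for the other shares. None of the 12 other family genes, given below, had a peak in all 3 lists, so these shares describe the chosen genes and not the family. The count of 3 windows rests on narrow peaks: with only peaks at least as wide as the median of their list it was 0 of 8, against 14.1% of all windows. Under that rule MCL1 and BAD lost only the BioRep1 peaks in the window, and BCL2L2 those of BioRep1 and BioRep2. Without BioRep1, whose list was the shortest with 7931 peaks, the count was 5 of 8, against 33.1%.

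Read density is given as CPM, the usual count scaled for depth, here to the reads of a library that fell in windows. It was averaged over the technical libraries and is given as mean ± SD over 3 biological replicates. The windows all have the same length, so no scaling for length was needed. No input was subtracted, so levels of different genes also hold any difference in background between loci, which was not tested. The median over the 8 windows was 41.8 CPM, against 23.7 CPM over all protein-coding windows, and 7 of 8 lay above that median. The 12 other family genes had a median of 16.7 CPM. Protein-coding windows with no peak had a median of 11.1 CPM, and those with a peak in all 3 lists 64.7 CPM. Libraries held 372030 to 846114 reads in windows, and the members 108 to 411 reads over the 9 libraries together, so a single library rests on 6 to 61 reads for a member.

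**Figure D1:**
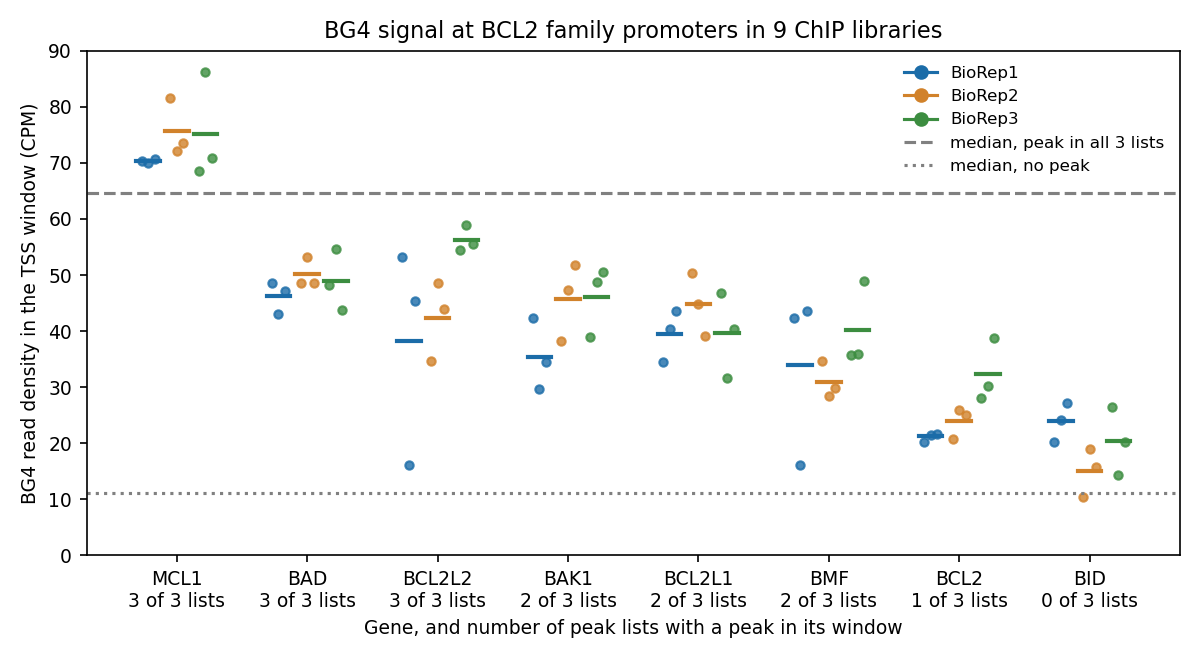
BG4 read density (CPM, linear axis) in the TSS windows of 8 BCL2 family genes; each point is 1 technical library, each short bar the mean of a biological replicate, and the grey lines are medians of protein-coding windows with a peak in all 3 lists (dashed) and with none (dotted). All 9 MCL1 points lie between 68.6 and 86.2 CPM, above every point of the other genes, while BCL2 and BID have the lowest means.

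Among the anti-apoptotic genes, MCL1 had the highest signal. MCL1 encodes a short-lived BCL2 relative that many dividing cells depend on. Its window (chr1:150579539-150579938, ENSG00000143384.12) had 70.4, 69.9 and 70.7 CPM in BioRep1 tech1 to tech3, 81.5, 72.1 and 73.6 in BioRep2, and 68.6, 86.2 and 70.8 in BioRep3. The mean was 73.7 ± 2.97 CPM (SD, n = 3), 6.63 times the median of windows without a peak and at percentile 91.9 of protein-coding windows. All BioRep1 libraries were below all BioRep2 libraries, BioRep3 overlapped both, and no library fell below the median of windows with a peak in all 3 lists. The peaks formed a pair of shared regions, where a shared region is a merged set of peaks that each overlap a peak of both other lists by 1 bp or more. The first (chr1:150579516-150579957) reached from 347 bp upstream of the 5′ end to 94 bp inside the gene. The second (chr1:150579173-150579443) lay 167 to 437 bp inside it and outside the window, so the window does not count its reads in full. The lncRNA gene LOC107985203 has an end 220 bp from the MCL1 5′ end, and reads of the first region cannot be assigned to either.

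BCL2L2, which encodes BCL-W, had a peak in all 3 lists and a wider spread. Its window (chr14:23306636-23307035, ENSG00000258643.5) had 53.2, 16.1 and 45.3 CPM in BioRep1, 34.7, 48.5 and 43.9 in BioRep2, and 54.5, 58.9 and 55.6 in BioRep3, with a mean of 45.6 ± 9.50 CPM (n = 3). The BioRep3 libraries were all above those of the other replicates. The lowest value came from BioRep1 tech2, the shallowest library, in which 6 reads gave an exact 95% Poisson interval of 5.92 to 35.1 CPM. Even so, the difference between BioRep3 and BioRep1 was 0.38 ± 0.21 (SE) on the log2 scale and did not pass edgeR's quasi-likelihood test (adjusted p = 0.651). The peaks were 75, 94 and 274 bp wide in BioRep1, BioRep2 and BioRep3 and merged into chr14:23306654-23306927, from 179 bp upstream to 94 bp inside the gene. The window was matched by position and is shared with the readthrough gene BCL2L2-PABPN1, which has the same 5′ end. Its reads cannot be assigned to either gene. A further shared region, chr14:23301356-23302086, lay 5477 to 4747 bp upstream, inside PPP1R3E, a gene for a glycogen-targeting phosphatase subunit.

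BCL2L1 encodes BCL-XL, a survival factor, and by splicing a shorter pro-apoptotic form. Its peaks lay mainly inside the gene. The window (chr20:31723790-31724189, ENSG00000171552.12) had 34.4, 40.3 and 43.5 CPM in BioRep1, 50.3, 44.9 and 39.2 in BioRep2, and 46.8, 31.6 and 40.4 in BioRep3, with a mean of 41.3 ± 3.05 CPM (n = 3). The replicates overlapped. The shared region (chr20:31723521-31723827) ran from 136 to 442 bp downstream of the 5′ end, mostly past the window. The BioRep1 peak, 256 to 390 bp inside the gene, did not touch the window at all, which is why the window counted 2 lists where the region had 3. BioRep2 alone had a second peak, 166 bp wide, across the 5′ end itself, over part of the sequence printed above.

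BCL2, the gene that names the family, had a weaker signal. Its window (chr18:63319929-63320328, ENSG00000171791.12) had 20.3, 21.5 and 21.7 CPM in BioRep1, 20.8, 26.0 and 25.1 in BioRep2, and 28.1, 30.2 and 38.7 in BioRep3. All BioRep3 libraries were above all others, and only BioRep3 had a peak, 83 bp wide, 174 to 92 bp upstream of the 5′ end. The mean was 25.8 ± 5.79 CPM (n = 3), at percentile 52.6 of protein-coding windows. BioRep3 exceeded BioRep1 by 0.55 ± 0.29 (SE) on the log2 scale, which did not pass (edgeR's quasi-likelihood test, adjusted p = 0.630). No other peak lay within 5 kb of this gene of 196745 bp, and the other windows in it, of ENSG00000267766.1 and ENSG00000283125.1, had 4.64 ± 0.586 and 4.57 ± 0.287 CPM. The RefSeq promoter stretch of BCL2 belongs to a start inside the gene (chr18:63319720-63320019). It was 70.7% G and C, held no motif, was overlapped by no peak and does not reach the BioRep3 peak.

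BAK1 was the only effector among the 9 genes. It encodes a pore-forming protein of the outer mitochondrial membrane. Its window (chr6:33580094-33580493, ENSG00000030110.12) had 42.3, 29.6 and 34.4 CPM in BioRep1, 38.2, 47.3 and 51.7 in BioRep2, and 39.0, 48.8 and 50.5 in BioRep3, with a mean of 42.4 ± 6.06 CPM (n = 3). The ranges of the replicates overlapped. Peaks lay across the 5′ end in BioRep2 and BioRep3, from 55 bp upstream to 92 bp inside and from 62 bp upstream to 128 bp inside, and BioRep1 had none within 5 kb of the gene. The BAK1 motif, 99 to 76 bases before the start, lay just outside both peaks, 21 bp from the BioRep2 peak and 14 bp from the BioRep3 peak.

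Of the BH3-only genes, BAD and BCL2L11 had peaks across their 5′ ends in every list. BAD encodes a sensitiser that growth factor signalling silences by phosphorylation. Its window (chr11:64284505-64284904, ENSG00000002330.13) had 48.5, 43.0 and 47.1 CPM in BioRep1, 48.6, 53.2 and 48.6 in BioRep2, and 48.3, 54.6 and 43.8 in BioRep3. The values were close together, with a mean of 48.4 ± 1.99 CPM (n = 3), the smallest SD of the 8 windows. The shared region (chr11:64284687-64284869) reached from 165 bp upstream to 17 bp inside the gene. The BAD motif, 103 to 82 bases before the start, lay under the BioRep2 and BioRep3 peaks and 41 bp from the BioRep1 peak, which was 44 bp wide. A second shared region (chr11:64269760-64270318) lay across the 3′ end of BAD, 14386 to 14944 bp from its 5′ end. Its midpoint was 23 bp from the centre of the window named for GPR137, a gene that overlaps BAD, and that window had 86.2 ± 9.55 CPM (n = 3) with a peak in all 3 lists.

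BCL2L11 encodes BIM, a potent activator of BAX and BAK1, and had no window under the rule. The closest window on its strand (ENSG00000153094.22, chr2:111119179-111119578) is centred 1536 bp from the RefSeq 5′ end, past the limit of 1 kb, whereas the farthest accepted centre was that of MCL1 at 128 bp. That window had no peak and 5.84, 4.32 and 16.0 CPM in BioRep1, BioRep2 and BioRep3, from 51 reads in all. The peak lists, by contrast, had a shared region at the RefSeq 5′ end itself (chr2:111120579-111120952, 335 bp upstream to 38 bp inside). The peaks across the end were 170, 338 and 255 bp wide, and the motif printed above, 92 to 68 bases before the start, lay under all 3 of them. A second shared region (chr2:111122442-111122644) lay 1528 to 1730 bp inside the gene. It consists of the BioRep3 peak, which overlapped a BioRep1 peak of 17 bp and 2 BioRep2 peaks, while the BioRep1 and BioRep2 peaks did not overlap each other. The level at this promoter was not measured by the windows.

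BMF and BID had fewer peaks than the other BH3-only genes. BMF encodes a protein held at the cytoskeleton until stress releases it. Its window (chr15:40108693-40109092, ENSG00000104081.13) had 42.3, 16.1 and 43.5 CPM in BioRep1, 34.7, 28.4 and 29.8 in BioRep2, and 35.8, 35.9 and 48.9 in BioRep3, with a mean of 35.0 ± 4.72 CPM (n = 3). All BioRep3 libraries were above all BioRep2 libraries, BioRep1 overlapped both, and BioRep1 tech2 was lowest, again from 6 reads. The BioRep1 peak (12 bp wide, 132 to 121 bp upstream) and the BioRep3 peak (105 bp wide, 240 to 136 bp upstream) fell in the stretch printed above but did not overlap each other. BioRep2 and BioRep3 had overlapping peaks of 39 and 21 bp about 9.9 kb inside the gene (9941 to 9979 and 9930 to 9950 bp).

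BID encodes a protein that caspase 8 cleaves to pass a death receptor signal to mitochondria. Its window (chr22:17774571-17774970, ENSG00000015475.18) had 20.3, 24.2 and 27.2 CPM in BioRep1, 10.4, 18.9 and 15.7 in BioRep2, and 26.5, 14.4 and 20.2 in BioRep3, with a mean of 19.8 ± 4.49 CPM (n = 3), 1.78 times the median of windows without a peak. All BioRep2 libraries were below those of BioRep1. The difference of -0.63 ± 0.34 (SE) on the log2 scale was the largest between replicates for any of the 8 windows and did not pass (edgeR's quasi-likelihood test, adjusted p = 0.693). None of the 3 lists had a peak from 5 kb upstream to 5 kb downstream of BID. Of its 5 RefSeq promoter stretches, the one at the RefSeq 5′ end (48.7% G and C) held no motif. Yet the other 4, whose starts lie inside the gene, held motifs, all of them inside the gene. The start at 17774469, for example, is preceded by a pair of them, 72 to 54 and 51 to 29 bases upstream (chr22:17774523-17774541 and chr22:17774498-17774520, minus strand), with every base of the motif in capitals.
BID, farther from the start: GGGGGCGGGCCGGGGCGGG
BID, nearer the start: GGGGCGGGCCCGGGCGTGGGGGG
Both lie outside the BID window, so its reads do not measure them. The peak lists are not limited to windows, and no list had a peak over either motif.

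**Figure D2:**
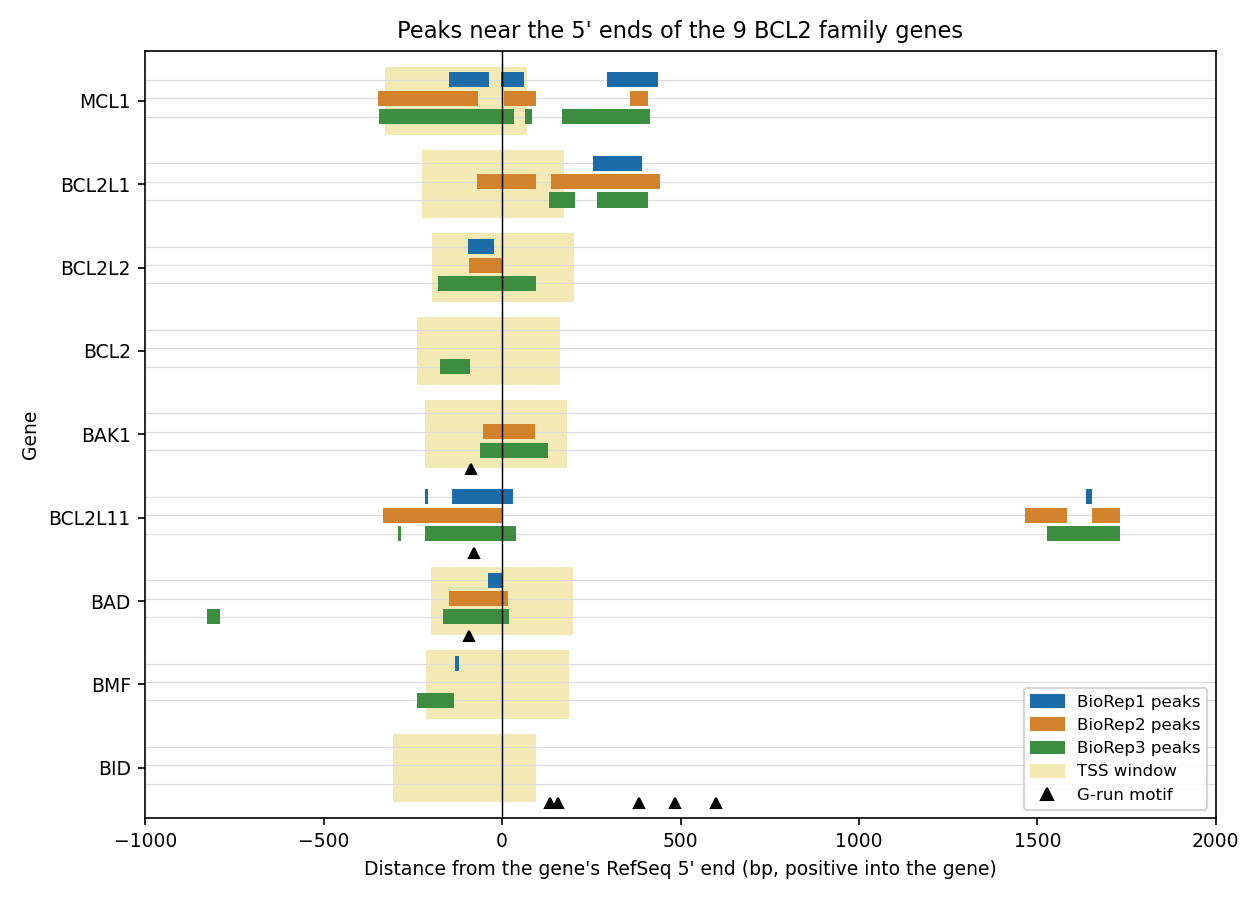
Peaks of the 3 lists (coloured bars, 1 row per biological replicate; the shortest are drawn 8 bp wide) from 1 kb upstream to 2 kb downstream of the RefSeq 5′ end of each gene, with the 400 bp TSS window shaded and motifs in RefSeq promoter sequence as triangles (no promoter sequence for MCL1 and BCL2L2). The BCL2 promoter sequence lies inside the gene, so the bases upstream of that 5′ end were not searched. Peaks of all 3 lists meet at or just upstream of the 5′ ends of MCL1, BCL2L2, BCL2L11 and BAD. The shared region of BCL2L1 lies 136 to 442 bp inside the gene, and BID has motifs inside the gene but no peak.

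Seen over whole genes, 5 of the 9 had a shared region within 5 kb (BCL2L1, BCL2L2, MCL1, BCL2L11 and BAD; 55.6%, Wilson interval 26.7 to 81.1%), against 33.9% of all 20052 protein-coding genes. The interval includes the background. The 9 genes had a median length of 20990 bp, and all protein-coding genes 24098 bp. The lists held 46 peaks in these stretches, 13 from BioRep1, 14 from BioRep2 and 19 from BioRep3. Only some of these peaks were part of a shared region, and there were 9 such regions. By role, the window had a peak in all 3 lists at 2 of the 4 anti-apoptotic genes and at 1 of the 4 pro-apoptotic genes with a window, numbers too small to compare.

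By level the order was MCL1, BAD, BCL2L2, BAK1, BCL2L1, BMF, BCL2 and BID. Only MCL1 stood clear of its neighbour: its lowest replicate had 70.3 CPM and the highest of BAD 50.1 CPM. Each of the other neighbours overlapped in the range of their replicates. MCL1 stayed highest, at 1.50 to 1.55 times the next gene, when any library or biological replicate was left out or another scaling was used. The protein-coding windows closest to MCL1 over the 9 libraries, by root mean square difference in log2 CPM, were DDA1 (0.08), ZFP41 (0.09) and CCDC6 (0.09), with means of 73.5 ± 3.19, 76.2 ± 6.11 and 73.6 ± 3.47 CPM and a peak in all 3 lists each. They were picked from 16888 genes for closeness, which is a description.

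None of the 8 windows differed between biological replicates past the threshold. All 8 passed the filter on low counts. In edgeR's quasi-likelihood test over the 3 replicates, their adjusted p ran from 0.725 to 0.988, and 0 of 8 had an unadjusted p under 0.05. Among all windows tested, 0 of 17499 were called (0%), with 1377 (7.87%) at an unadjusted p under 0.05, and DESeq2 called 0 as well. In simulated counts with known changes in BioRep3, the edgeR test called 16.4% of 1.5-fold and 52.2% of 2-fold changes. Differences of such size can therefore be missed. The technical libraries of a replicate differed by no more than counting noise (chi-square per degree of freedom 0.921 to 0.990, against 0.958 to 1.12 between replicates). The technical libraries were the replicates in the edgeR test, so by design its p-values measure the spread between technical libraries.

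The motif was present in 4 of the 7 genes with RefSeq promoter sequence (BCL2L11, BAD, BAK1 and BID; 57.1%), against 36.3% of 15842 protein-coding genes, or 30.4% of their 22198 promoter stretches. A match is a description of letters and not a site. Over all these stretches, 30.5% of those with a motif touched a shared region, against 20.5% of those without. The stretches with a motif were also richer in G and C (median 70.3%, against 58.3%), and the part of base composition in this was not tested. Among the 7 genes, a stretch touched a shared region in 2 of the 4 with a motif and in 0 of the 3 without, numbers too small to compare. BCL2L11 (74.7% G and C) and BAD (68.3%) had a motif and peaks of all 3 lists in the stretch, and BAK1 (58.7%) a motif and peaks of 2 lists. BID, at 48.7 to 78.0% over its stretches, had motifs inside the gene, none in the stretch at its 5′ end (48.7%), and no peak. BMF (65.0%) had peaks of 2 lists and BCL2L1 (52.0% at its outermost start) of 1 list without a motif. The BCL2 stretch had neither, but it lies inside the gene. The bases upstream of the BCL2 5′ end, where the BioRep3 peak lies, were not searched. No other motif was searched.

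Other genes of the pathway were read the same way, with gene lists drawn up from textbook knowledge. None of the 12 other BCL2 family genes had a peak in all 3 lists (0%, Wilson upper bound 24.2%), against 23.9% of all protein-coding windows. The interval includes that share. Of the 12, 2 had peaks in 2 lists, 1 in 1 list and 9 in none. Among all protein-coding windows, 34.2% had a peak in 2 or more lists and 41.4% in 1 or more. The median of the 12 was 16.7 CPM. BBC3 and BCL2L12 had a shared region within 5 kb of the gene, though none in the window (2 of 12, against 33.9% of all protein-coding genes). BCL2L13, a mitochondrial relative, had 56.7 ± 2.75 CPM (n = 3) and BAX, the second pore-forming effector, 51.1 ± 6.99 CPM, each with peaks in 2 lists. PMAIP1, which encodes the BH3-only protein NOXA, had 36.5 ± 3.92 CPM and a peak in 1 list. BCL2L14 (5.31 ± 1.67 CPM) and BCL2L10 (5.25 ± 2.04 CPM) were lowest and lay below the median of windows without a peak.

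In a list of caspases with their regulators and mitochondrial partners, which includes CASP8, a caspase that acts upstream of mitochondria, 14 of 17 genes had a window and 5 of these a peak in all 3 lists (35.7%, Wilson interval 16.3 to 61.2%, against 23.9% of all). Another 2 genes had peaks in 2 lists, 1 gene in 1 list and 6 genes in none, with a median of 44.5 CPM. A shared region within 5 kb was found for 10 of the 17 genes, DIABLO among them, against 33.9% of all protein-coding genes. CASP2, an initiator caspase, had 89.0 ± 3.32 CPM (n = 3), and CYCS, which encodes cytochrome c, 83.4 ± 7.34 CPM. APAF1, the scaffold of the apoptosome, had 71.1 ± 4.50 CPM. The inhibitor of apoptosis genes BIRC5 (58.5 ± 5.82 CPM) and BIRC2 (53.4 ± 7.85 CPM) also had peaks in all 3 lists, while BIRC3 (15.5 ± 5.07 CPM) had none. The window named by position for DIABLO, which encodes an antagonist of those inhibitors, had 16.0 ± 1.80 CPM and no peak in the window. MCL1, at 73.7 CPM, thus lay among the upper genes of this list, and BCL2 and BID among the lower. Differences between the lists were not tested.

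**Figure D3:**
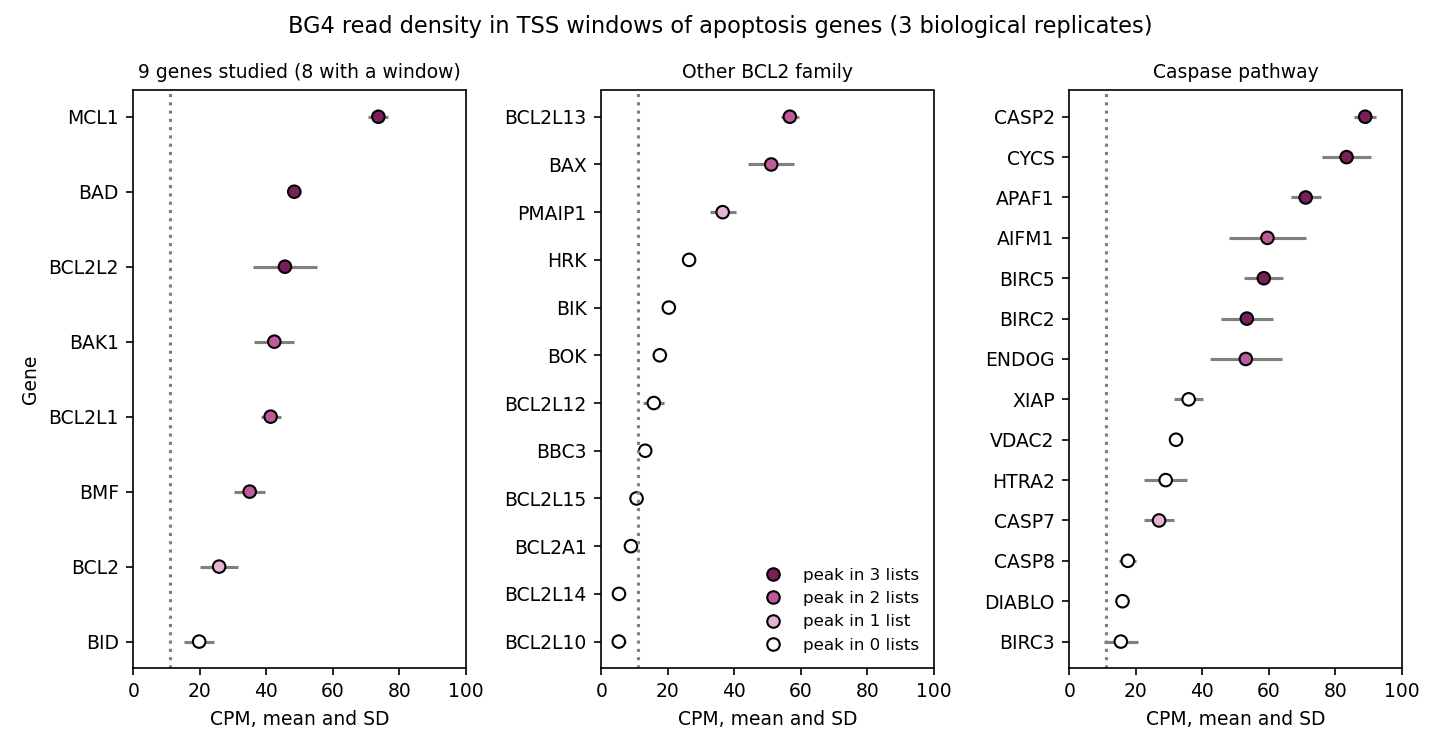
Read density (CPM, mean with SD over 3 biological replicates) in the TSS windows of the 8 family genes with a window, 12 other BCL2 family genes and 14 caspase pathway genes; the fill gives the number of lists with a peak, and the dotted line marks 11.1 CPM, the median where no list had a peak. Windows with a peak in all 3 lists lie between 45.6 and 89.0 CPM, and those of the middle panel reach 56.7 CPM without a peak in every list.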

How the data were processed

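Each deposited coverage file gives, for 1 library, the unscaled read count of every 400 bp window centred on a TSS of GENCODE release 28 (hg38, per the labels). Peaks were deposited as coordinates alone, with 1 list for each biological replicate. Cutadapt, BWA, Picard, MACS2 and bedtools appear in the submitters' processing notes, without versions. Peak thresholds, how technical libraries were joined and whether marked duplicates were counted were not given in the sources used here. No input was subtracted from the counts, and the inputs were not analysed here. Windows were matched to 84.2% of 20052 RefSeq protein-coding genes (GRCh38.p14) by position, with strand from RefSeq promoters or from the only gene end reached, and 158 genes reached at both ends were left out. At MCL1 and BCL2L2 the strand came from the end reached.

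Python 3.11.15, numpy 2.4.6, pandas 2.3.3, scipy 1.17.1, matplotlib 3.10.9, R 4.3.3, edgeR 4.0.16 and DESeq2 1.42.0 were used. Counts of all windows were fitted in edgeR's quasi-likelihood model (TMM, filterByExpr, robust; common dispersion 0.0011) over the 9 libraries, with Benjamini-Hochberg adjustment at 0.05 over 17499 windows. Simulated counts with known changes were used to test the script. CPM was computed from reads in windows. Log2 CPM for closeness used a prior of 1. Peaks overlapped when they shared 1 bp or more. Wilson and Poisson intervals cover counting error only. The technical number did not pair libraries (9 correlations of deviations, -0.010 to 0.018).

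The members and gene lists were chosen with earlier results of these data known, and 1 gene of the caspase pathway list is not reported here. Other genes named are the 3 highest and 2 lowest of each list, genes with a peak in all 3 lists, the 3 windows closest to the highest member, and genes sharing a member's window or an end within 1 kb. PPP1R3E, GPR137 and the windows inside BCL2 were named after their values were seen. Alternatives covered size factors, filter, tool, block, peak and naming rules, flanks, scaling, motif definition, and the omission of every library and biological replicate in turn.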

Additional observations from a re-analysis of the deposited data

How the results depend on the processing

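The count of windows differing between biological replicates was 0 in edgeR. It stayed at 0 with DESeq2's size factors, with the DESeq2 likelihood ratio test and with the technical number as a replicate block, was 25 of 56196 windows without a filter on low counts, and ran from 0 to 1 when each library was left out (1 without BioRep1 tech1 and 1 without BioRep3 tech2). No member window was called in any of these. The 3 of 8 windows with a peak in all 3 lists (23.9% of all protein-coding windows) became 6 with a peak in at least 2 lists (34.2% of all). They became 7 with a peak in any list (41.4%) and 0 with only peaks at least as wide as the median of their list (14.1%). They were 4 with peaks within 1 kb of the TSS (29.4%) and 3 with windows within 200 bp of the 5′ end (25.6%). Without BioRep1 they were 5 (33.1%), without BioRep2 4 (24.7%) and without BioRep3 3 (24.3%). The 5 of 9 genes with a shared region (33.9% of all genes) stayed at 5 with no flank (27.3%) and with 10 kb (37.0%). They also stayed at 5 when only bases covered by a peak of each list were counted (33.2%), an alternative chosen after seeing the data. Without BioRep1 they were 7 (44.6%), and without BioRep2 or BioRep3 they were 5 (34.9% and 34.0%). The motif count of 4 of 7 genes (36.3% of all genes) was 5 with up to 12 bases between runs (51.5%) and 4 before the start alone (34.7%). It was 7 with runs of 2 or more G, which 91.3% of all genes hold. The median of 41.8 CPM ran from 40.1 to 44.0 CPM over 14 alternatives. Each member's mean moved by less than its SD over biological replicates in all 112 member and setting combinations. Leaving out 1 of 3 biological replicates cannot move a mean past that SD, so those combinations could not have failed. Depth limits the values of single libraries, since a member has as few as 6 reads in a library.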
